A study of Mus musculus with 16 samples.

Results

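A set of genes of the Wnt pathway were followed in sorted cells of mouse hair follicle organoids, chosen by gene name as 10 of the 22579 genes in the count tables: the ligands Wnt4, Wnt7a, Wnt7b and Wnt10a, the receptors Fzd2 and Fzd6, the R-spondin receptor Lgr4, the secreted modulators Dkk3 and Sfrp1, and the feedback regulator Axin2. Organoids of C57BL/6J cells from 2 donor mice were cultured for 2 weeks, left untreated or given N1-acetylspermidine (N1-AcSpd), an acetylated polyamine, for 72 h. They were then sorted into alpha6+CD34- cells, called progenitors here, and alpha6+CD34+ cells, called hair follicle stem cells (HFSCs) here. RNA-seq libraries and Ribo-seq libraries, the latter made from fragments protected by ribosomes (footprints), were made of each, which gives 4 groups with n = 2 libraries in each assay and 16 libraries in all. No age or sex was used, and as organoid cells are a culture model, the levels below are those of cultured and sorted cells.

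Wnt ligands are secreted lipid-modified proteins that bind Frizzled receptors with an LRP coreceptor. In the β-catenin branch this binding stops a cytoplasmic complex built on Axin from degrading β-catenin, which then acts with TCF/LEF factors on target genes, and Axin2 is a widely used target that feeds back on the pathway. R-spondins bound to Lgr4, Lgr5 or Lgr6 keep Frizzled receptors on the cell surface, whereas secreted proteins of the Sfrp family bind ligands. In the hair follicle, Wnt signaling is known to switch resting stem cells into growth, and bulge stem cells are known to express Wnt inhibitors as well as Frizzled receptors.

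The sorted cells differed in the surface marker of their labels, and all carried the basal keratin Krt5. Cd34 was between 2.35 and 5.36 CPM (counts scaled to a common library size) in the 4 progenitor RNA-seq libraries and between 67.5 and 89.9 CPM in the 4 HFSC libraries, and Krt5 was at 18149 CPM or more in all 8. The summed level of 5 suprabasal markers (Krt1, Krt10, Ivl, Lor, Flg) was 50.1 to 214 CPM in progenitors and 27.6 to 69.9 CPM in HFSCs, and its part in the differences below was not tested. Sums of 6 fibroblast, 5 melanocyte, 4 endothelial and 5 immune markers stayed at 13.8 CPM or less in every library, with Lum, Cdh5, Cldn5, Cd207 and Lyz2 at 0 in all 8. RNA-seq libraries held 21601141 to 31505435 counts and Ribo-seq libraries 34467 to 267921 footprints on the transcripts kept, so that 3 footprints, the limit where a library has none, correspond to 11.2 to 87.0 CPM.

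One group of libraries went against its replicate numbers. The log2 ratio of replicate 1 over replicate 2, which the labels tie to the 2 mice, was correlated across 12232 genes other than the 10 at r = 0.35 to 0.59 among untreated progenitors, untreated HFSCs and treated progenitors in RNA-seq. Against treated HFSCs it was correlated at r = -0.58 to -0.39, as a description across genes, which are not independent. Of 21 genes at least 2-fold higher in replicate 1 of all 3 other groups, 21 were lower in replicate 1 of treated HFSCs, and of 49 at least 2-fold higher in replicate 2, 47 were higher in replicate 1 there. In Ribo-seq the treated HFSC libraries did not show this: genes high in mouse 1 gave 46.0% of the footprints on the 2 sets in replicate 1 and 16.7% in replicate 2 (95% exact binomial intervals 35.2 to 57.0% and 8.29 to 28.5%, which cover counting error only). The main fits use no mouse term, so their values do not depend on these numbers.

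Most of the 10 genes went the same way by sign. For 8 of them, all but Fzd6 and Axin2, the ratio of replicate 1 over replicate 2 had 1 sign in the 3 other RNA-seq groups. For 8 of these 8 it had the opposite sign in treated HFSCs. This count used the sign alone, without the 2-fold limit above, and its share over all genes was not counted. Some ratios were near 0, with a log2 ratio of 0.01 for Wnt10a in untreated progenitors. Dkk3, a secreted glycoprotein of the Dickkopf family, was the steadiest, with log2 ratios of -1.15, -1.25 and -1.19 in untreated progenitors, untreated HFSCs and treated progenitors and 1.25 in treated HFSCs. Wnt7b had log2 ratios of 1.57, 1.14 and 2.25 in the 3 groups and -1.52 in treated HFSCs. The cause was not tested.

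**Figure D1:**
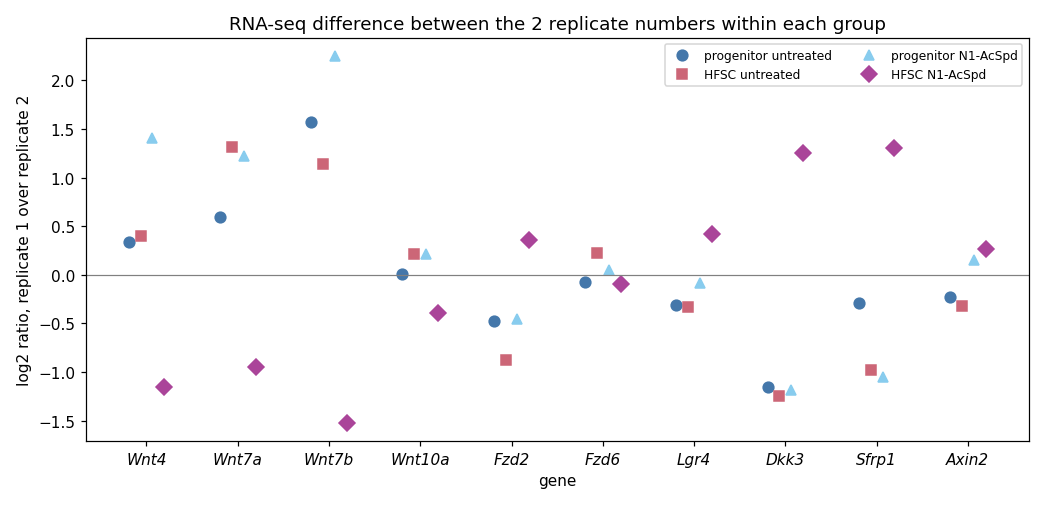
Log2 ratio of RNA-seq CPM in replicate 1 over replicate 2 (y axis) for each of the 10 genes (x axis), with 1 point per group of 2 libraries. The diamonds of treated HFSCs lie on the other side of 0 from the other 3 groups in Wnt4, Wnt7a, Wnt7b, Wnt10a, Fzd2, Lgr4, Dkk3 and Sfrp1.

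The ligands were read at very unequal levels. Of 19 Wnt ligand genes, 11 had a mean of at least 1 CPM over the 8 RNA-seq libraries, and Wnt1 had no count. Per kilobase of coding sequence, the scale for comparing genes, Wnt10a stood at 119.9 ± 14.0 CPM (mean ± SD, n = 8 libraries over all groups), Wnt4 at 45.6 ± 27.2, Wnt7b at 3.42 ± 3.35 and Wnt7a at 1.51 ± 1.22. The range of Wnt10a, 98.3 to 134, met that of Wnt4, 16.6 to 102, through 1 treated progenitor library. Wnt7b (0.858 to 10.7) and Wnt7a (0.239 to 3.46) overlapped.

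Of the other members, Dkk3 had 34.4 ± 24.9 CPM per kilobase, Fzd2 30.7 ± 14.3, Fzd6 25.0 ± 3.29, Lgr4 22.9 ± 5.70, Sfrp1 18.6 ± 11.9 and Axin2 5.58 ± 1.12. Neighbours in this order, Wnt4 included, lay within the spread of each other, apart from Axin2, whose highest library at 7.68 CPM per kilobase was below the lowest Sfrp1 library at 7.75. The length scale applies because reads were counted on coding sequence: of 4434 pairs of transcripts of 1 gene with the same coding exons but other untranslated exons, 99.6% had equal RNA-seq counts in all 8 libraries.

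Between cell types, 3 of the 10 genes differed at an adjusted P under 0.05. Averaged over both treatments, HFSCs had less Wnt7a and more Fzd2 and Lgr4 mRNA than progenitors. These 3 passed the quasi-likelihood test of edgeR, adjusted by Benjamini-Hochberg over 14205 genes, of which 3.91% passed (2.11% higher and 1.80% lower in HFSCs). At an unadjusted P under 0.05 there were 8 of the 10 and 18.1% of all genes. The median log2 fold change of the 10 genes was 0.04 and that of all genes -0.01, since some members were higher and others lower. In 4 of the 10, Wnt4, Wnt7a, Fzd2 and Dkk3, the 4 HFSC and the 4 progenitor RNA-seq libraries did not overlap, as was so for 9.48% of all genes tested.

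**Figure D2:**
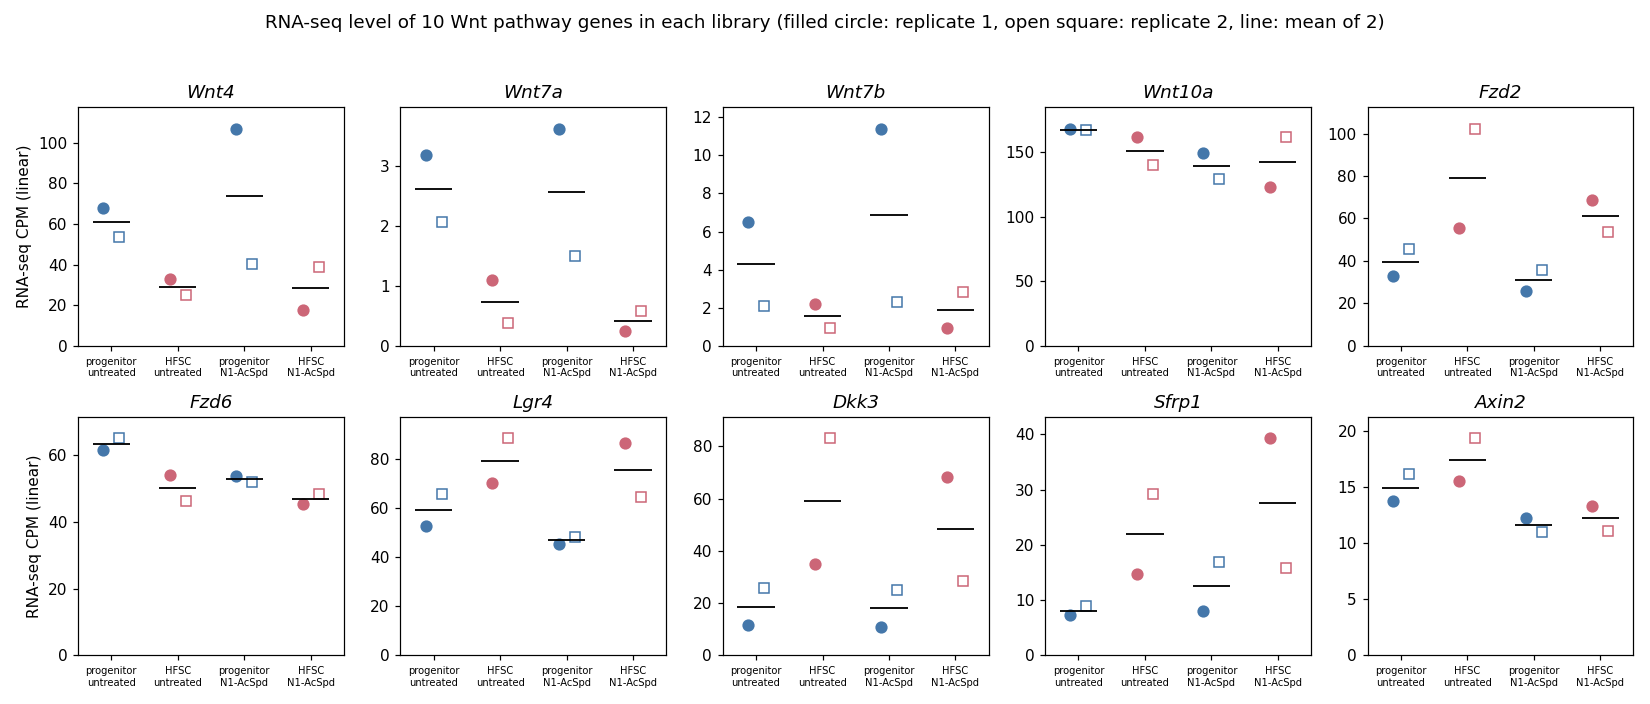
RNA-seq CPM (y axis, linear, from 0) of the 10 genes in the 4 groups (x axis), with replicate 1 as filled circles, replicate 2 as open squares and the mean of the 2 libraries as a line, progenitors in blue and HFSCs in red. Wnt4 and Wnt7a are lower and Fzd2 and Dkk3 higher in all 4 HFSC libraries than in any progenitor library, and Wnt10a lies between 123 and 168 CPM throughout.

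Wnt7a (chr6:91363981-91411363, minus strand, 4 exons, GRCm38), a ligand known from limb and nervous system development, had 3.18 and 2.07 CPM in untreated progenitors and 1.09 and 0.379 CPM in untreated HFSCs (replicates 1 and 2). With N1-AcSpd it had 3.62 and 1.50 CPM in progenitors and 0.250 and 0.576 CPM in HFSCs. All HFSC libraries were below all progenitor libraries. Its level was 4.58-fold lower in HFSCs (log2 fold change -2.20 ± 0.45 SE, adjusted P = 0.0334).

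Fzd2 (chr11:102604396-102608058, plus strand, 1 exon) encodes a receptor that can signal through β-catenin and through other branches. It had 32.8 and 45.8 CPM in untreated progenitors and 55.7 and 102 CPM in untreated HFSCs. With N1-AcSpd it had 26.0 and 35.6 CPM in progenitors and 68.7 and 53.7 CPM in HFSCs. The groups did not overlap, and the level was 2.00-fold higher in HFSCs (log2 fold change 1.00 ± 0.21, adjusted P = 0.0350). Of the 28-base words of its coding sequence, 94.0% occur in no other gene, and the rest are shared with Fzd1 or Fzd7.

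Lgr4 (chr2:109917647-110014257, plus strand, 18 exons) had 52.8 and 65.6 CPM in untreated progenitors and 70.0 and 88.3 CPM in untreated HFSCs. With N1-AcSpd it had 45.4 and 48.3 CPM in progenitors and 86.6 and 64.7 CPM in HFSCs. Only the highest progenitor and the lowest HFSC library crossed. The level was 1.47-fold higher in HFSCs (log2 fold change 0.55 ± 0.13, adjusted P = 0.0474).

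In edgeR these 3 calls stood close to the threshold, while DESeq2 gave an adjusted P of 1.56e-05 for Fzd2, 0.000253 for Wnt7a and 0.00167 for Lgr4. With a minimum mean of 10 counts in edgeR, Wnt7a and Fzd2 passed and Lgr4 did not, with 4.45% of all genes passing. With counts summed over all transcripts of a gene, none of the 10 passed in edgeR, where 3.26% of all genes did. At an unadjusted P under 0.05 that fit had 8 of the 10 and 17.1% of all genes. With the replicate number as a block, Wnt7a (adjusted P = 0.0446) and Fzd2 (0.0350) passed and Lgr4 did not (0.0739), with 3.13% of all genes passing. With 1 library left out, 2 of 8 fits kept each call: Wnt7a and Fzd2 passed without untreated HFSC replicate 1 and without treated progenitor replicate 2, and Lgr4 without untreated HFSC replicate 1 and without treated HFSC replicate 2. Leaving out any of the other 6 libraries ended the call, with adjusted P of up to 0.120 for Wnt7a, 0.128 for Fzd2 and 0.172 for Lgr4, while log2 fold changes stayed between -2.68 and -1.81, 0.75 and 1.19, and 0.44 and 0.67. In a fit chosen after seeing the data, which blocked on replicate numbers after swapping those of treated HFSCs in RNA-seq, 8 of the 10 genes passed, and so did 13.7% of all genes.

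A further 5 genes did not pass the test in the main fit. Of these, Wnt4, Dkk3 and Sfrp1 passed in edgeR without a minimum count, where 5.45% of all genes passed. Wnt4 (chr4:137277489-137299726, plus strand) had 67.9 and 53.8 CPM in untreated progenitors and 33.2 and 25.1 CPM in untreated HFSCs. With N1-AcSpd it had 107 and 40.2 CPM in progenitors and 17.5 and 39.1 CPM in HFSCs. No HFSC library reached a progenitor library, and the log2 fold change was -1.22 ± 0.33 (adjusted P = 0.0817). Wnt7b (chr15:85535441-85581821, minus strand), a close relative of Wnt7a, had 6.48 and 2.11 CPM in untreated progenitors, 2.21 and 0.946 in untreated HFSCs, 11.4 and 2.32 in treated progenitors and 0.917 and 2.82 in treated HFSCs. Its spread between replicates was as wide as the difference between cell types (log2 fold change -1.64 ± 0.59, adjusted P = 0.182).

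Dkk3 (chr7:112116017-112159057, minus strand) had 11.5 and 25.7 CPM in untreated progenitors, 35.0 and 83.1 in untreated HFSCs, 11.0 and 25.2 in treated progenitors and 68.2 and 28.6 in treated HFSCs. The HFSC libraries lay above the progenitor libraries, with a log2 fold change of 1.54 ± 0.42 (adjusted P = 0.0860). Sfrp1 (chr8:23411502-23449632, plus strand), a secreted protein with a Frizzled-like domain that binds Wnt ligands, had 7.30 and 8.95 CPM in untreated progenitors, 14.8 and 29.3 in untreated HFSCs, 8.09 and 16.8 in treated progenitors and 39.2 and 15.8 in treated HFSCs. Its highest progenitor library exceeded the lowest HFSC library (log2 fold change 1.29 ± 0.35, adjusted P = 0.0851). Fzd6 (chr15:39006333-39038186, plus strand), a receptor known for planar cell polarity and hair orientation, had 61.5 and 64.8 CPM in untreated progenitors, 53.9 and 46.2 in untreated HFSCs, 53.5 and 51.9 in treated progenitors and 45.3 and 48.3 in treated HFSCs (log2 fold change -0.25 ± 0.08, adjusted P = 0.119).

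Wnt10a and Axin2 were close to level. Wnt10a (chr1:74791516-74804179, plus strand), a ligand needed for hair and tooth development, had 168 and 167 CPM in untreated progenitors, 162 and 139.8 in untreated HFSCs, 149 and 129 in treated progenitors and 123 and 162 in treated HFSCs. The groups overlapped, and the 95% interval of its log2 fold change between cell types ran from -0.30 to 0.18. Axin2 (chr11:108920349-108950783, plus strand) had 13.7 and 16.1 CPM in untreated progenitors, 15.5 and 19.3 in untreated HFSCs, 12.3 and 11.0 in treated progenitors and 13.3 and 11.1 in treated HFSCs. Its interval ran from -0.14 to 0.43. Of the 28-base words of its coding sequence, 93.9% occur in no other gene, the rest being shared with Gm11670, and for Wnt7b 98.9%, the rest being shared with AU022754.

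**Figure D3:**
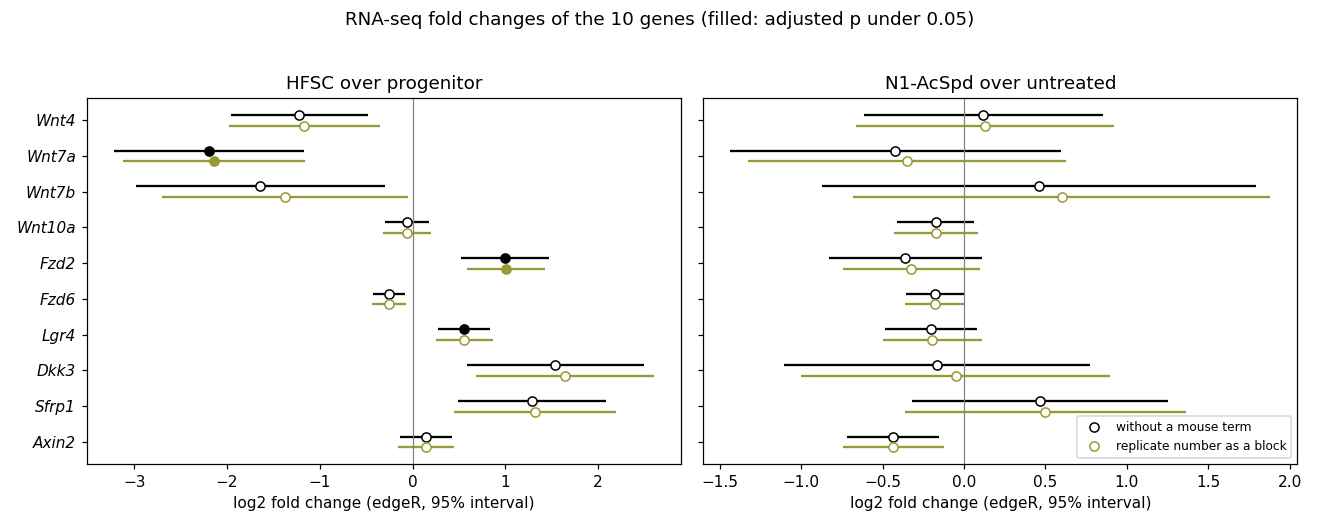
Log2 fold changes with 95% intervals (x axis) of the 10 genes (y axis) for HFSCs over progenitors and for N1-AcSpd over untreated in RNA-seq, each averaged over the other factor, in black without a mouse term and in olive with the replicate number as a block. Filled points have an adjusted P under 0.05: Wnt7a, Fzd2 and Lgr4 in black and Wnt7a and Fzd2 in olive, all between cell types.

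Within 1 treatment fewer libraries bear on the difference. Between untreated HFSCs and progenitors 0 of the 10 passed in edgeR, as did 0.148% of all genes, and between treated cells 0 of 10, with 0.746% of all genes. At an unadjusted P under 0.05 there were 7 and 6 of the 10, and 9.58% and 11.2% of all genes. DESeq2 called 1 of 10 in untreated cells (Fzd2) and 3 of 10 in treated cells (Wnt7a, Fzd2 and Lgr4), where it called 1.89% and 2.68% of all genes. The log2 fold changes in untreated and treated cells were -1.81 and -2.58 for Wnt7a, 1.00 and 0.99 for Fzd2, 0.42 and 0.69 for Lgr4, -1.06 and -1.38 for Wnt4, 1.66 and 1.42 for Dkk3 and 1.44 and 1.14 for Sfrp1. Single libraries moved these values: without treated progenitor replicate 1 the treated value of Wnt4 was -0.50 and without treated HFSC replicate 2 it was -2.05. The treated values of Dkk3 and Sfrp1 were 0.64 and 0.33 without treated HFSC replicate 1 and 2.15 and 1.78 without treated progenitor replicate 2. The untreated value of Wnt7a was -1.26 without untreated HFSC replicate 2 and -2.78 without untreated HFSC replicate 1. The untreated comparison does not contrast the treated HFSC libraries. The difference between the 2 settings, tested as an interaction of cell type and treatment, passed for 0 of the 10 genes and 0% of all genes. At an unadjusted P under 0.05 there were 0 of the 10 and 0.831% of all genes, and DESeq2 called 0 of the 10 and 0% of all genes. The interaction intervals were wide, from -0.95 to 0.93 on the log2 scale for Fzd2 and from -2.12 to 1.63 for Dkk3.

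None of the 10 genes passed the threshold for N1-AcSpd, either without a mouse term or with the replicate number as labelled as a block. That block gave 0 of 10 averaged over both cell types, with 0.950% of all genes passing. Averaged over both cell types, edgeR called 0 of 10 against 1.64% of all genes, with 2 of 10 and 15.6% of all genes at an unadjusted P under 0.05, and DESeq2 called 0 of 10 and 4.09% of all genes. The block on swapped numbers, chosen after seeing the data, called 2 of 10, Axin2 and Fzd2, and 8.87% of all genes. Axin2 had the smallest adjusted P: it was 1.35-fold lower with N1-AcSpd (log2 fold change -0.44 ± 0.12, adjusted P = 0.138), with means of 14.9 ± 1.70 CPM in untreated and 11.6 ± 0.883 in treated progenitors, and 17.4 ± 2.71 and 12.2 ± 1.57 CPM in HFSCs (SD, n = 2). All 4 treated libraries of Axin2 lay below all 4 untreated ones, and the treated and untreated libraries of 7.81% of all genes did not overlap. The other 9 genes had log2 fold changes from -0.42 for Wnt7a to 0.47 for Sfrp1.

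In progenitors alone, N1-AcSpd gave 0 of 10 calls against 0.239% of all genes (1 of 10 and 8.88% of all genes at an unadjusted P under 0.05, 0 of 10 and 1.25% of all genes by DESeq2). In HFSCs alone it gave 0 of 10 against 0% of all genes (1 of 10 and 7.74% of all genes at an unadjusted P under 0.05, 0 of 10 and 0.873% of all genes by DESeq2). Simulated RNA-seq libraries with the measured means and spreads had changes between cell types, averaged over both treatments, in genes with a mean of 10 or more counts. Of those changed 2-fold, 83% were recovered in a run on 14061 genes. Unchanged genes made up 5.14% of the calls there and 13.8% in a run with 4-fold changes. The simulated counts held no mouse difference shared between groups. In the measured data Wnt4, 2.33-fold lower in HFSCs, and Dkk3, 2.91-fold higher, did not pass, so changes above 2-fold may be missed too. The simulated runs compared 4 against 4 libraries and do not measure what 2 against 2 libraries within 1 cell type can detect.

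The rest of the pathway was read from a list of 95 further Wnt genes, of which 78 had enough counts. Between cell types, 8 were higher and 3 lower in HFSCs and 67 did not pass, with a median log2 fold change of 0.05 against -0.01 over all genes. DESeq2 called 15 higher and 3 lower, where 6.79% of all genes passed, against 3.91% in edgeR. The list was drawn up with earlier results of these data known, so its counts are a description. Among receptors and coreceptors 1 of 14 passed: Fzd10 was lower, at 5.32 to 8.04 CPM in HFSCs and 11.6 to 17.6 CPM in progenitors (log2 fold change -1.03 ± 0.13, adjusted P = 0.00561). In the R-spondin module 2 of 5 tested genes passed. Lgr5, a marker of cycling follicle stem cells, was at 0.768 to 5.87 CPM in HFSCs and 0.0413 to 0.344 CPM in progenitors (adjusted P = 0.0200). Lgr6 was at 0.576 to 6.66 and 0.0483 to 0.387 CPM (adjusted P = 0.0169). In RNA-seq, 3 counts correspond to 0.0952 to 0.139 CPM, so the lowest progenitor values of both rest on fewer than 3 counts. Treated HFSC replicates 1 and 2 had 3.21 and 0.768 CPM of Lgr5 and 2.79 and 0.576 CPM of Lgr6.

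Antagonists gave 3 of 11 calls, all higher in HFSCs, while 7 of the 8 that did not pass had log2 fold changes below 0 and the median of the 11 was -0.14. Sostdc1, a secreted inhibitor of Wnt and BMP signaling, was at 220.2 to 297 CPM against 143 to 179.6 CPM (log2 fold change 0.67 ± 0.10, adjusted P = 0.00971). Shisa2, which holds Frizzled receptors in the endoplasmic reticulum, was at 1.54 to 3.48 against 0.181 to 0.301 CPM (adjusted P = 0.00412), and Wif1, which binds Wnt ligands, at 1.21 to 2.65 against 0.241 to 0.452 CPM (adjusted P = 0.0201). Of 12 nuclear factors 3 passed, all higher: Lef1 (adjusted P = 0.0138), Tcf7 (0.0124) and Tcf7l2 (0.0160), with 22.9 to 32.1 CPM of Tcf7l2 in HFSCs and 14.0 to 17.4 CPM in progenitors.

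None of 9 further ligands, 2 secretion genes and 20 genes of the destruction complex and cytoplasm passed. The ligand Wnt3a had a log2 fold change of -0.71 ± 0.26 (adjusted P = 0.197), and Tle4, a corepressor of TCF/LEF factors, one of -0.35 ± 0.10 (adjusted P = 0.0847). Of 13 common target genes tested beside Axin2, 5 passed and 8 did not: Lef1, Tcf7 and Lgr5 were higher, and Ccnd1, which drives the G1 phase of the cell cycle (log2 fold change -0.44 ± 0.09, adjusted P = 0.0312), and the hyaluronan receptor Cd44 (-0.35 ± 0.08, adjusted P = 0.0454) were lower. With the replicate block Ccnd1 (adjusted P = 0.0502) and Cd44 (0.0595) did not pass. With N1-AcSpd, averaged over both cell types, 0 of the 78 passed in edgeR, where 1.64% of all genes did. At an unadjusted P under 0.05 there were 11 of the 78 and 15.6% of all genes, and DESeq2 called 3 of the 78 and 4.09% of all genes. The median log2 fold change was -0.10 against -0.01 over all genes.

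The genes most like the 3 called members over the 8 RNA-seq libraries, by Pearson correlation of log2 CPM among 12242 genes, were Ankk1 (r = 0.98), Cct2 (0.98) and Serpinb2 (0.98) for Wnt7a, Boc, a hedgehog coreceptor (0.99), Slc44a2 (0.99) and Inhbb (0.99) for Fzd2, and Ptprs (0.99), Dennd1a (0.99) and Zfp629 (0.99) for Lgr4. Among the 10 members, Fzd2 and Lgr4 had r = 0.96, Fzd2 and Dkk3 r = 0.95, Wnt4 and Wnt7a r = 0.94, and Wnt7b and Dkk3 r = -0.96. These are descriptions over 8 libraries that share cell type, treatment and mouse.

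Sequence upstream of the start was taken from RefSeq (GRCm38.p6) for the 2 called genes with an entry, Wnt7a and Lgr4, which differed in opposite directions, and for Axin2 as the common target gene. Each is printed 5′ to 3′ on the gene's strand, ends at the base before the start of the transcript counted, and has CG dinucleotides in capitals. The windows are chr6:91411364-91411603 (minus strand) for Wnt7a, chr2:109917397-109917646 (plus strand) for Lgr4 and chr11:108920099-108920348 (plus strand) for Axin2.
Wnt7a: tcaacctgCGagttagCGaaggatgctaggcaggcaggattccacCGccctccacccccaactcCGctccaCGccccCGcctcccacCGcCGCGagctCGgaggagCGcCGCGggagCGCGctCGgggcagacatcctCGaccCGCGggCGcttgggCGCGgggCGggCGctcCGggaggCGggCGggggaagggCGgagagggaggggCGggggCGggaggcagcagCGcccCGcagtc
Lgr4: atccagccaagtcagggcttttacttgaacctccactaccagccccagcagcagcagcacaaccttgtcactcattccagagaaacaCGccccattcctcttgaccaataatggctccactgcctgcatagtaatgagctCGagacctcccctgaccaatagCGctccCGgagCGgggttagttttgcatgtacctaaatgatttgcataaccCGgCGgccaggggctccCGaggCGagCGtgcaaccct
Axin2: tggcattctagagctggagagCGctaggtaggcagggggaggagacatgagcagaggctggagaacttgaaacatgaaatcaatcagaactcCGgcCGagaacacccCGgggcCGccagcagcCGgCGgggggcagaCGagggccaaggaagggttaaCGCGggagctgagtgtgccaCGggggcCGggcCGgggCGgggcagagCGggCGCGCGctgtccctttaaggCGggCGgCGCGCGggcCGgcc

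These windows differed in base composition. Wnt7a held 32 CG dinucleotides and 77.1% G and C in 240 bases, more than 97.4% of 32851 promoter windows of that length in G and C content. Lgr4 held 10 and 55.6% in 250 bases, more than 60.1% of the windows, and Axin2 24 and 69.2%, more than 89.6%. The TCF/LEF core letters CTTTGA and CTTTGT were searched on both strands and occurred in none of the 3 windows, while 27.6% of all windows of 250 bases held 1 or the other. This says only that these letters are not in these bases. Of the other members, Wnt4 has an entry, and Wnt7b, Wnt10a, Fzd2, Fzd6, Dkk3 and Sfrp1 have none.

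Footprints were few. Over 8 Ribo-seq libraries Wnt10a had 54, Dkk3 47, Lgr4 41, Fzd2 29, Wnt4 19 and Sfrp1 10, whereas Axin2 had 8, Fzd6 4, Wnt7a 2 and Wnt7b 0. To set these beside mRNA, each gene's share of RNA-seq counts was multiplied by the footprints of the library and summed. At that share Fzd6 would have had 45.8 footprints, so its 4 are 0.087 of that number (95% exact Poisson interval 0.024 to 0.224), at percentile 3.81 of 9667 genes with 5 or more footprints at their share. All 28-base words of its coding sequence occur in no other gene. Without the deepest Ribo-seq library, untreated progenitor replicate 2, the ratio was 0.104.

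Fzd6 and Fzd2 had like mRNA levels per length but unlike footprint numbers, Fzd2 having 29 against 48.1 (ratio 0.602, interval 0.403 to 0.865). Dkk3 had 47 against 35.0 (1.34, interval 0.988 to 1.79), Wnt10a 54 against 126 (0.428, interval 0.321 to 0.558), Wnt4 19 against 38.1 (0.499, interval 0.300 to 0.779) and Lgr4 41 against 58.7 (0.698, interval 0.501 to 0.947). Low ratios were common among their relatives: of 10 other receptors and coreceptors on the Wnt list with 5 or more footprints at their share, 9 lay under 1, with a median of 0.439. Fzd8 (0.170), Ryk (0.201), Fzd5 (0.237) and Fzd1 (0.308) were the lowest, Lrp5 and Lrp6 stood at 0.417 and 0.461, and Fzd7 was above its share at 99 against 84.8 (1.17). Intervals cover counting error only, and 0.43 lay at percentile 19.3 and 1.34 at percentile 63.8 of the same genes.

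**Figure D4:**
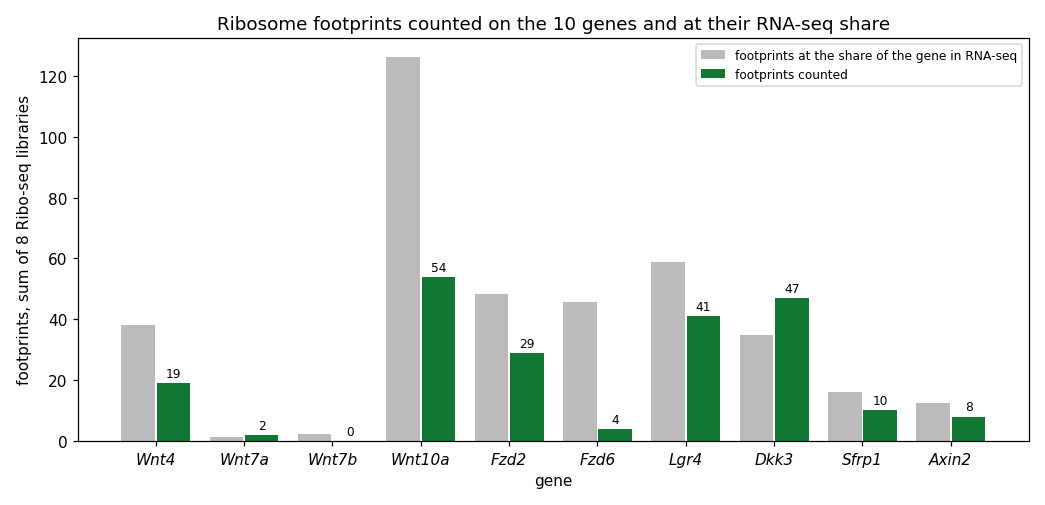
Footprints counted (green, with the number above each bar) and the number at the gene's RNA-seq share (grey) over 8 Ribo-seq libraries (y axis, from 0) for the 10 genes (x axis). Dkk3 is above its share at 47 against 35.0, and Fzd6 has 4 against 45.8.

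Footprint numbers of Fzd2, Dkk3 and Lgr4 by cell type rested largely on the deeper libraries. In order of replicates 1 and 2 of untreated progenitors, untreated HFSCs, treated progenitors and treated HFSCs, Fzd2 had 0, 6, 1, 12, 1, 1, 7 and 1 footprints. Summed over 4 libraries that is 21 in HFSCs and 8 in progenitors, of 397492 and 448440 footprints in all, a ratio of shares of 2.96 (exact counting interval 1.26 to 7.73), and 1.91 to 4.77 with a library or a mouse left out. Dkk3 had 2, 8, 3, 17, 2, 1, 12 and 2, a ratio of 2.95 (interval 1.52 to 6.09), and 2.14 to 3.62 with a library or a mouse left out. Untreated HFSC replicate 2 alone held 12 of the 21 HFSC footprints of Fzd2 and 17 of the 34 of Dkk3.

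Lgr4 had 2, 8, 0, 20, 3, 0, 6 and 2 footprints, a ratio of 2.43 (interval 1.22 to 5.11) that ranged from 0.685 to 4.72 with a library or a mouse left out, its direction turning without untreated HFSC replicate 2, which held 20 of its 28 HFSC footprints. Wnt4 had 7, 5, 0, 1, 2, 1, 3 and 0, a ratio of 0.301 (interval 0.073 to 0.944), and 0.122 to 0.521 with a library or a mouse left out. Of its 15 progenitor footprints, 7 were in untreated progenitor replicate 1, the shallowest Ribo-seq library at 34467 footprints. Wnt10a had 3, 18, 1, 8, 3, 4, 11 and 6, a ratio of 1.05 (interval 0.590 to 1.85). Sfrp1 had 3 footprints in progenitors and 7 in HFSCs, a ratio of 2.63 with an interval of 0.601 to 15.8.

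The tests of footprints and of translational efficiency, the footprints relative to mRNA, called none of the 7 members that averaged 1 footprint or more per library, which are the 6 with at least 10 footprints and Axin2 with 8. For HFSCs over progenitors edgeR called 0 of 7 in Ribo-seq, where 0.154% of all genes passed, with 1 of 7 and 4.14% of all genes at an unadjusted P under 0.05. For N1-AcSpd it called 0 of 7 against 0.0830% of all genes, with 0 of 7 and 4.84% of all genes at an unadjusted P under 0.05. Translational efficiency gave 0 of 7 in both comparisons, where 0% of all genes passed. At an unadjusted P under 0.05 it gave 0 of 7 in either, with 6.05% of all genes between cell types and 7.33% for N1-AcSpd. DESeq2 called 0 of 7 in all 4, and at most 0.0593% of all genes. Simulated Ribo-seq libraries had changes between cell types, averaged over both treatments, only in genes with a mean of 10 or more footprints. Of those changed 2-fold, 12% were recovered in a run on 7909 genes, and of those changed 4-fold, 83% in a run on 7895 genes. Differences of 2-fold were thus mostly not detectable at this depth. None of the members averaged 10 footprints, so for them 4-fold differences may be missed too.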

How the data were processed

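RNA-seq and Ribo-seq reads of 16 libraries were trimmed with flexbar, cleared of rRNA and tRNA with bowtie (1.2.3) and aligned to mm10 with STAR (2.7.3a) by the authors, who deposited raw counts for 64026 transcripts. The submitters' processing notes name featureCounts, with no role or settings given. The authors' fold changes and p-values were not used. The transcript with the most footprints was kept for each gene. Genes averaging 1 count or more per library were fitted in edgeR (4.0.16) with TMM scaling, all groups of an assay together, and P was adjusted by Benjamini-Hochberg. CPM values are TMM-scaled, and positions are from GENCODE annotation of GRCm38. The members, the Wnt list and the tests were chosen with earlier results of these data known. Other Wnt genes were named if they passed, or ranked among the 5 smallest P per direction with 1 direction in all 4 pairs of cell types. The labels tie replicate numbers to mice, so the block pairs libraries by mouse, while correlations of the mouse difference ran from -0.58 to 0.59. With 2 libraries a group, an exact permutation test cannot go below 0.333 (two-sided), and 0.0286 for 4 against 4. The latter takes libraries of 1 mouse as independent, which they are not. Alternatives were DESeq2 (1.42.0), other scalings and filters, summed transcripts, the block and libraries left out. The fits were tested on simulated data.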

Additional observations from a re-analysis of the deposited data

How the results depend on the processing

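Of the 10 genes, 3 passed between cell types averaged over both treatments. That count was 6 without a minimum count (5.45% of all genes), 0 in edgeR with counts summed over a gene's transcripts, 3 with DESeq2 (6.79% of all genes) and 2 with the replicate block, and it ranged from 0 to 3 with single libraries left out. The block on exchanged numbers, chosen after seeing the data, gave 8 (13.7%), and gave 7 in untreated (5.29%) and 7 in treated cells (6.36%) and 2, Axin2 and Fzd2, for N1-AcSpd averaged over both cell types (8.87%). DESeq2 gave 1 in untreated (1.89%) and 3 in treated cells (2.68%). The causes were not tested. Some directions turned with a library or a mouse left out: log2 fold changes between treated cells ranged from -0.26 to 0.31 for Wnt10a, -0.084 to 0.21 for Axin2, -3.61 to 0.27 for Wnt7b and -0.10 to 2.30 for Sfrp1, and that of Wnt10a averaged over both treatments from -0.15 to 0.033. For N1-AcSpd averaged over both cell types they ranged from -0.32 to 0.39 for Wnt4, -0.95 to 0.084 for Wnt7a, -0.32 to 0.98 for Wnt7b, -0.44 to 0.053 for Lgr4 and -0.78 to 0.46 for Dkk3. None of these passed the test. Leaving out a whole mouse, by its replicate number, left no residual degrees of freedom and gave values with no test. As treated HFSC RNA-seq ran against these numbers, such RNA-seq fits may not leave out 1 mouse throughout. With its numbers exchanged, a choice made after seeing the data, the treated pairs had log2 ratios of -2.02 and -1.34 for Wnt7b and 0.97 and 1.22 for Sfrp1. For Wnt10a (0.11 and -0.07) and Axin2 (-0.14 and 0.28) their signs still differed. Footprint depth limits all Ribo-seq comparisons.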
